A study of Mus musculus with 72 samples.

Results

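The gasdermins are a family of membrane proteins, and 8 of the 46078 mouse genes counted in this study of back skin epidermis are described here: Gsdma, Gsdma2, Gsdma3, Gsdmc, Gsdmc2, Gsdmc3, Gsdmc4 and Gsdmd. They were chosen by symbol, because Gsdmc lay far lower in KO than in WT epidermis. The KO minus WT differences of all 8 genes, and every level difference of Gsdmc, are therefore given as a description with no test. The RE minus KO difference of Gsdma2 is given in the same way, for a reason stated with it. A gasdermin is made as an inactive protein whose amino-terminal domain is held in check by its carboxy-terminal domain. When a protease cuts between them, the freed domain inserts into the cell membrane and opens pores, through which interleukin 1 cytokines leave and by which the cell can die (pyroptosis). Gsdma is made in the differentiating upper layers of the epidermis, mutations of Gsdma3 cause hair loss in mice, and Gsdmd is the gasdermin cut by the inflammasome protease caspase-1.

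The samples came from 3 genotypes, all female C57BL/6 mice of 8 weeks that had lived in a 12 h light, 12 h dark cycle and then, from 7 weeks of age, in darkness for 156 to 176 h. RE mice (Bmal1-stopFL/K14-Cre) carry a Bmal1 (Arntl) gene blocked by a removable stop cassette together with a Cre recombinase driven by the keratin 14 promoter, which acts in keratinocytes, so that the clock gene is restored where that promoter acts. KO mice (Bmal1-stopFL) carry the blocked gene without Cre. WT mice (K14-Cre) carry the Cre and an intact Bmal1. The design asks what the clock within the epidermis does in the presence or absence of clocks elsewhere. Interfollicular epidermis was lifted off the back skin with dispase, and RNA from 4 animals per genotype was sequenced at each of 6 time points, 24 libraries per genotype and 72 in all.

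Library totals in mega-reads lay between 25.6 and 95.03 for RE, between 24.5 and 44.9 for KO and between 27.6 and 46.4 for WT. Levels are given as CPM, the count per mega-read of the library total after TMM scaling. Arntl ran from 47.1 to 76.2 CPM in RE, from 26.1 to 35.1 CPM in KO and from 18.1 to 99.2 CPM in WT animals, so that RE and KO did not overlap. The sample was epidermis by its markers: the 7 basal layer markers summed to medians of 27918 CPM in RE, 27824 in KO and 28647 in WT, against 0.788, 0.740 and 0.650 CPM for 4 endothelial markers in RE, KO and WT. The most extreme library of each genotype on the first principal component lay at time point 6, replicate 1 in RE and replicate 4 in KO and WT, and some results are also given without these 3 animals. In bulk RNA, fewer cells of a type and less RNA per cell cannot be told apart.

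The genes lie in 2 clusters and at 1 single site of GRCm38. Gsdma3 (98626360-98638226), Gsdma2 (98646759-98657964) and Gsdma (98664351-98677708) follow each other on the plus strand of chromosome 11. Gsdmc (63775968-63808759), Gsdmc2 (63824346-63845177), Gsdmc3 (63857724-63878558) and Gsdmc4 (63891264-63912297) follow each other on the minus strand of chromosome 15. Gsdmd (75862327-75867408, plus strand) lies alone, far along the same chromosome. Within each cluster the genes are close copies, which decides how far their counts can be told apart. In the coding sequence Gsdmc matched Gsdmc2, Gsdmc3 and Gsdmc4 at 86.1%, 86.3% and 86.4% of aligned bases, while Gsdmc2 and Gsdmc3 matched each other at 97.1%. Of all stretches of 75 bases in its longest-coding transcript, 11.2% of those of Gsdmc also occurred in another gene, against 37.0% for Gsdmc2, 30.7% for Gsdmc3 and 28.5% for Gsdmc4. The corresponding shares were 3.43% for Gsdma, 5.44% for Gsdma2, 0.285% for Gsdma3 and 0 for Gsdmd. Counts of Gsdmc2, Gsdmc3 and Gsdmc4 are therefore uncertain among themselves, since neither the read length nor the treatment of multiply mapped reads was stated, whereas Gsdmc, Gsdma and Gsdmd rest mostly on sequence of their own. The stretch of coding sequence below, chosen because Gsdmc differs most from its identical neighbours there, shows both cases within 60 bases (GENCODE transcripts of GRCm38, 5′ to 3′ along the gene, chromosome 15, minus strand). Capitals mark the 16 bases at which Gsdmc and the other 3 genes differ.
Gsdmc, coding bases 198 to 257: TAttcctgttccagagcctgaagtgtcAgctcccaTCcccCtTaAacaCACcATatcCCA
Gsdmc2, coding bases 195 to 254: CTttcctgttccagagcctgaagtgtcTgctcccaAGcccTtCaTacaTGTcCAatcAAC
Gsdmc3, coding bases 195 to 254: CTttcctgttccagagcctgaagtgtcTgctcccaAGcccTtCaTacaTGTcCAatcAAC
Gsdmc4, coding bases 195 to 254: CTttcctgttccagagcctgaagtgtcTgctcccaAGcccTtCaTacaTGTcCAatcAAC
The 3 lower lines are the same sequence, so a read that lies within them fits Gsdmc2, Gsdmc3 and Gsdmc4 equally well and Gsdmc poorly. The genes of chromosome 11 (Gsdma matched Gsdma2 at 89.6% and Gsdma3 at 90.7% of aligned coding bases) share the following stretch of 60 bases apart from the 1 base in capitals (chromosome 11, plus strand).
Gsdma, coding bases 838 to 897: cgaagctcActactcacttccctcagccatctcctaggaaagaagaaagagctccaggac
Gsdma2, coding bases 829 to 888: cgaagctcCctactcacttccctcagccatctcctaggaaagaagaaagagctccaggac
Gsdma3, coding bases 865 to 924: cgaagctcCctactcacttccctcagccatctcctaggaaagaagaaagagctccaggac

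Gsdma was the main gasdermin message of the epidermis in every genotype when levels were set per gene length (RPKM, CPM per kilobase of exon). Its median was 11.6 RPKM in RE, 16.6 in KO and 10.03 in WT animals. Gsdmc came next in RE and WT epidermis with medians of 4.98 RPKM in RE, 1.44 in KO and 8.97 in WT. Gsdma3 had 2.84 RPKM in RE, 4.24 in KO and 2.80 in WT, so that it stood above Gsdmc in KO animals. The other members were far lower: Gsdmc2 had 0.520 RPKM in RE, 0.373 in KO and 0.685 in WT, and Gsdmd had 0.394, 0.341 and 0.399 RPKM in RE, KO and WT. Gsdmc3, Gsdma2 and Gsdmc4 lay below 0.1 RPKM in each genotype. Single animals overlapped between neighbours in this order in WT, where Gsdma ran from 7.45 to 22.6 RPKM, Gsdmc from 4.10 to 20.7 and Gsdma3 from 1.32 to 10.52. Of the 8 genes 7 had enough reads to be tested. Gsdmc4 did not, with a count of 0 in 3 RE, 6 KO and 3 WT animals and at most 0.183 CPM in RE, 0.133 in KO and 0.434 in WT.

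**Figure D1:**
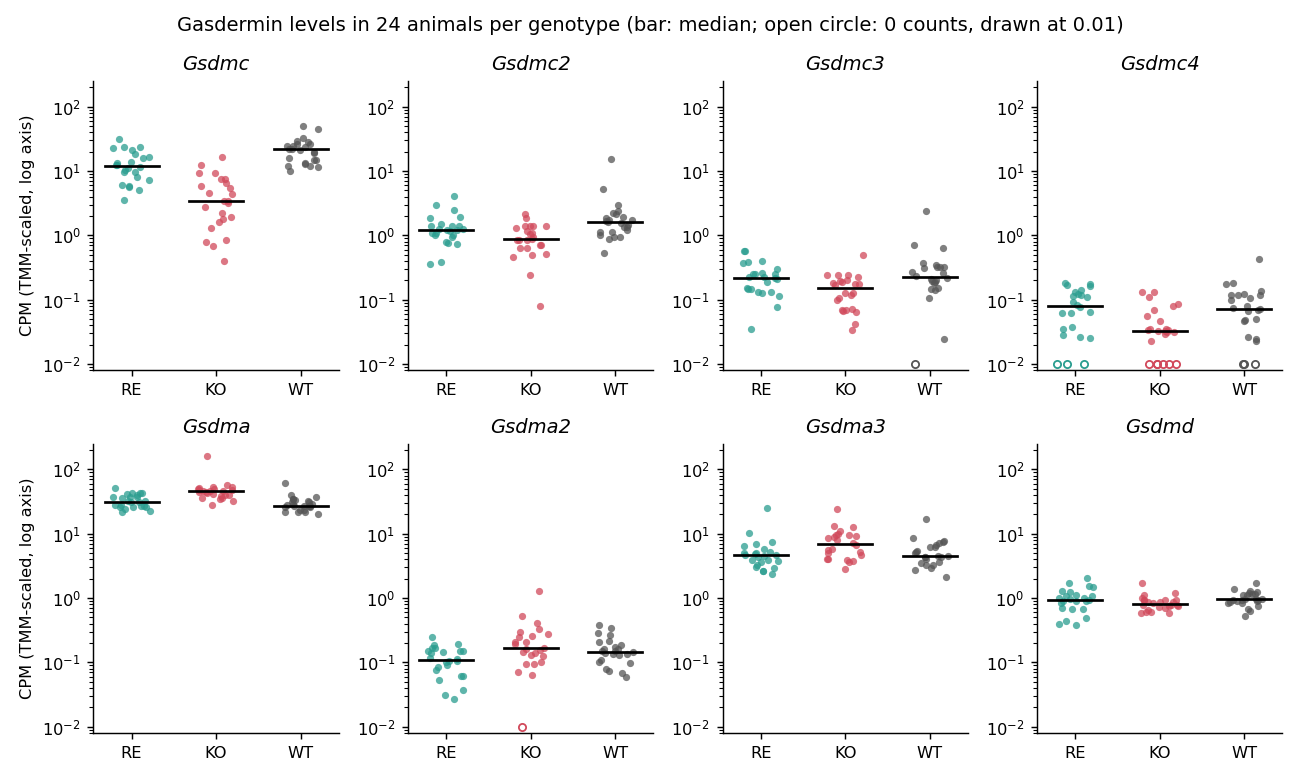
Level of each gasdermin (CPM, log axis) in the 24 animals of RE, KO and WT, with the median as a bar and animals without a count as open circles at 0.01. Gsdmc shows the widest gap between genotypes, with medians of 11.97 CPM in RE, 3.46 in KO and 21.6 in WT, while Gsdmd medians lie between 0.811 and 0.948 CPM.

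Gsdmc, which in human cells can be cut by caspase-8, was the member that differed most between genotypes. Its level ran from 3.50 to 30.9 CPM with a median of 11.97 in RE animals, from 0.402 to 16.6 CPM with a median of 3.46 in KO animals, and from 9.87 to 49.9 CPM with a median of 21.6 in WT animals. In KO epidermis 22 of 24 animals lay below the lowest WT animal, and all 24 lay below the WT median. The 2 KO animals within the WT range were replicate 2 of time point 5 at 16.6 CPM and replicate 4 of time point 6 at 12.6 CPM. The fitted KO minus WT difference of the mean level was -2.22 ± 0.27 on the log2 scale (standard error, n = 24 each), 0.215 of the WT level, and put Gsdmc at rank 34 of the 18538 genes tested when ordered from the lowest difference upward. Among the 12701 genes whose mean log2 CPM was 1 or more its rank was 9. RE animals lay between: all 24 were above the KO median, 20 of 24 were below the WT median, and the difference was 1.48 ± 0.27 for RE minus KO.

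The difference of Gsdmc between RE and WT epidermis is likewise given with no test. For other results a test passed at an adjusted p under 0.05 (edgeR's quasi-likelihood test, Benjamini-Hochberg over 18538 genes). The RE minus WT difference of Gsdmc was -0.74 ± 0.26 (95% interval -1.25 to -0.22). The RE mean was lower than the WT mean at 6 of 6 time points, and 9 of 24 RE animals lay below the lowest WT animal. RE minus WT shares its WT animals with KO minus WT, by which Gsdmc was chosen, so that choice bears on this gap and its interval. With limma voom in place of edgeR the same difference was -0.78.

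By time point the 3 genotypes kept their order throughout. In RE animals Gsdmc averaged 13.1 ± 5.25, 15.7 ± 10.7, 14.2 ± 4.58, 11.6 ± 8.15, 9.98 ± 9.11 and 14.8 ± 6.17 CPM at time points 1 to 6 (mean ± SD, n = 4). In KO animals it averaged 4.87 ± 3.74, 4.97 ± 3.42, 4.23 ± 2.33, 3.34 ± 3.40, 6.27 ± 6.95 and 4.86 ± 5.58 CPM. In WT animals it averaged 21.6 ± 4.94, 23.5 ± 3.54, 22.5 ± 9.86, 27.4 ± 16.1, 13.999 ± 3.99 and 23.2 ± 15.1 CPM. KO and WT animals did not overlap at 4 of the 6 time points, and the gap was narrowest at time point 5, at -1.15 log2 between the means, and widest at time point 4, at -3.02. No 24 h rhythm was called for Gsdmc in any genotype: the fitted peak-to-trough swing was 0.49 ± 0.52 log2 in RE (adjusted p = 0.838), 0.44 ± 0.55 in KO (0.850) and 0.35 ± 0.51 in WT (0.893; edgeR's quasi-likelihood test). Without the 3 extreme animals the swing was 0.05 in KO and 0.73 in WT, and neither was called.

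**Figure D2:**
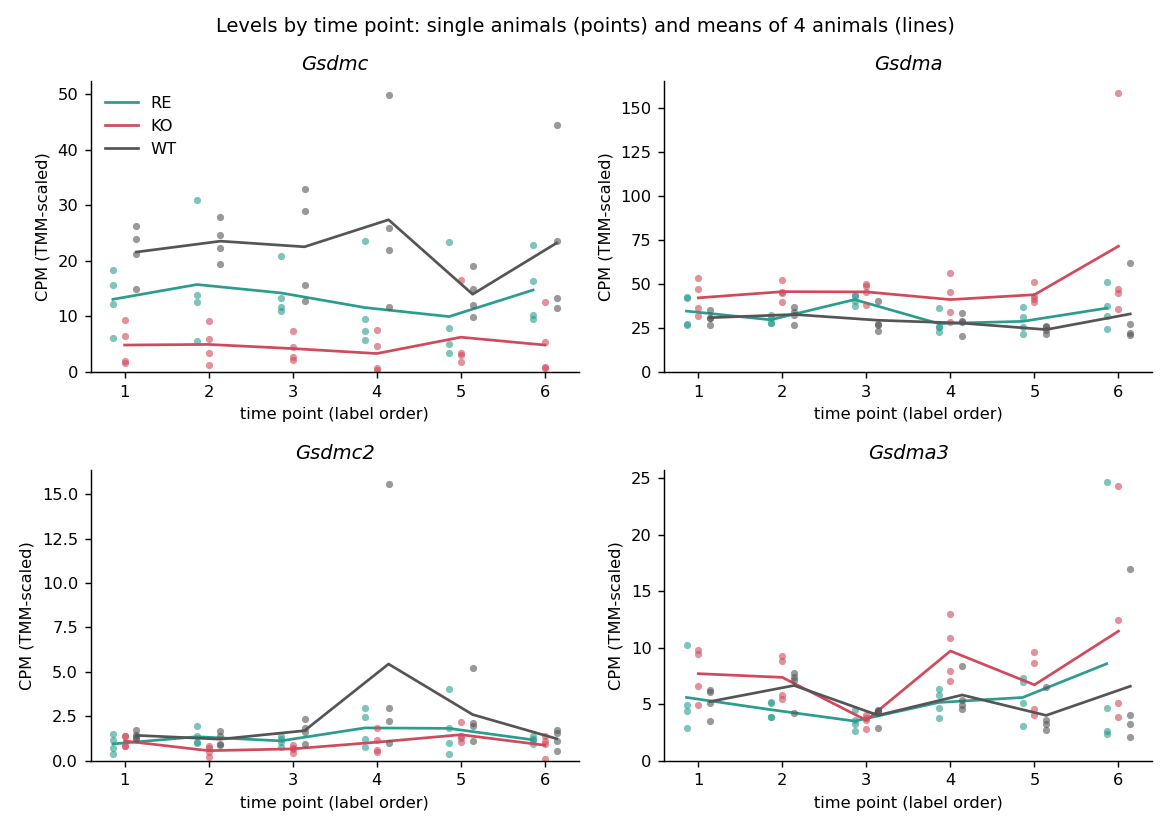
Level in CPM by time point for Gsdmc, Gsdma, Gsdmc2 and Gsdma3, with animals as points and the mean of 4 animals per genotype as lines. The KO line of Gsdmc lies lowest at all 6 time points. The highest animal of Gsdmc (49.9 CPM) and of Gsdmc2 (15.6 CPM) is a WT animal of time point 4. The highest of Gsdma is a KO animal of time point 6 (158 CPM). The highest Gsdma3 animal of each genotype is at time point 6 (24.6 CPM in RE, 24.3 in KO and 17.0 in WT).

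The other genes of the chromosome 15 cluster lay on the same side in KO animals, at far lower levels. Gsdmc2 ran from 0.363 to 4.05 CPM with a median of 1.20 in RE, from 0.0789 to 2.16 with a median of 0.864 in KO, and from 0.524 to 15.6 with a median of 1.59 in WT. Gsdmc3 had medians of 0.219 CPM in RE, 0.149 in KO and 0.222 in WT. The KO minus WT differences were -1.10 ± 0.24 for Gsdmc2 and -0.996 ± 0.30 for Gsdmc3, with the mean CPM lower in KO at 6 of 6 time points for both, and animals of the genotypes overlapped widely. For Gsdmc3 the means at time point 6 were nearly equal, 0.108 CPM in KO and 0.117 in WT, with a fitted difference of 0.01 log2. RE minus KO was 0.54 ± 0.24 for Gsdmc2 (adjusted p = 0.0921, edgeR) and 0.59 ± 0.31 for Gsdmc3 (0.163). RE minus WT was -0.56 ± 0.23 for Gsdmc2 (0.172) and -0.41 ± 0.28 for Gsdmc3 (0.480). None of these 4 tests passed, and their 95% intervals reach from 0.06 to 1.02, -0.04 to 1.21, -1.02 to -0.10 and -0.97 to 0.15. Without WT replicate 4 of time point 4 the Gsdmc2 difference between RE and KO had an adjusted p of 0.0435, and RE minus WT was -0.30 for Gsdmc2 (0.473) and -0.10 for Gsdmc3 (0.881).

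Because their reads can be shared, the cluster was also read as a whole. Gsdmc took a median of 87.3% of the reads of the 4 genes in RE animals, 78.4% in KO animals and 91.9% in WT animals, and as little as 35.6% in a single KO animal (replicate 1 of time point 6, with 16 reads of Gsdmc beside 26 of Gsdmc2). With the reads of the 4 genes summed, the difference was -2.07 log2 for KO minus WT, 1.34 for RE minus KO and -0.73 for RE minus WT.

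The cluster of Gsdmc has few tested neighbours. Within 250 kb of a Gsdmc gene the annotation holds 9 other genes, of which 3 had enough reads to be tested. In the comparisons of level 0 of the 3 were called. Over all genes, 28.2% were called for KO minus WT, 22.5% for RE minus KO and 4.03% for RE minus WT, so 0 of 3 is too few genes to set apart from these shares. Their KO minus WT differences were -0.16 ± 0.06 for Fam49b (adjusted p = 0.0503, edgeR's quasi-likelihood test; unadjusted 0.0142), 0.05 ± 0.16 for Gm20717 (0.873) and -0.11 ± 0.05 for Asap1, which regulates small GTPases of the ARF family (0.115; unadjusted 0.0423). Asap1 was called rhythmic in KO, with a swing of 0.47 (adjusted p = 0.0144). Of 4 clock genes checked, 0 were called rhythmic in KO, 1 in RE and 4 in WT, which bears on every KO and RE rhythm given here. Fam49b lies 202.4 kb from Gsdmc between gene midpoints, and the other 2 lie farther.

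Gsdma stood on the other side of the comparison. Its level ran from 21.9 to 51.4 CPM with a median of 31.5 in RE, from 28.3 to 158 CPM with a median of 45.3 in KO, and from 20.3 to 61.7 CPM with a median of 27.3 in WT animals. All 24 KO animals lay above the WT median, and the KO mean was higher at 6 of 6 time points, with a KO minus WT difference of 0.70 ± 0.12. Gsdma was lower in RE than in KO epidermis, a comparison that shares the KO animals with KO minus WT: the RE minus KO difference was -0.54 ± 0.12 (0.688-fold, adjusted p = 0.000451, edgeR's quasi-likelihood test), 23 of 24 RE animals lay below the KO median and the RE mean was lower at 6 of 6 time points. RE minus WT was 0.16 ± 0.12 (95% interval -0.08 to 0.39, adjusted p = 0.540).

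Gsdma2, by contrast with its abundant neighbour, was close to the limit of counting, with medians of 0.109 CPM in RE, 0.165 in KO and 0.147 in WT. RE animals were lower than KO animals by 0.98 ± 0.27 log2 units, with the mean lower at 6 of 6 time points. Gsdma2 had the reads needed for testing through KO and WT animals, as RE reached at most 0.244 CPM against 1.26 in KO. Its RE minus KO difference is therefore a description with no test. With limma voom that difference was -0.68, and without time point 2 it was -0.81. Gsdma3 ran from 2.39 to 24.6 CPM with a median of 4.59 in RE, from 2.82 to 24.3 with a median of 6.85 in KO, and from 2.13 to 17.0 with a median of 4.51 in WT. RE minus KO was -0.51 ± 0.21 for Gsdma3 (95% interval -0.93 to -0.10, adjusted p = 0.0637), and -0.60 with an adjusted p of 0.00535 once the 3 extreme animals of time point 6 were left out. Of the 5 markers of the upper hair follicle 3 fell in RE against KO, beside 11% of all genes, and 0 were called for KO minus WT. The markers that fell were Krt17, Krt79 and Sox9, by 0.32, 0.51 and 0.28 (adjusted p = 0.0420, 0.0102 and 0.0269, edgeR). The sum of all 5 ran from 616 to 2733 CPM in RE, from 839 to 4124 in KO and from 963 to 1813 in WT, with the highest value of each genotype in those 3 animals. The r of this sum with Gsdma3 was 0.757 over 72 libraries and 0.777 after the group means were subtracted. Both values include those 3 animals, which were also the highest for Gsdma3 in their genotype. The part of the sum in the difference of Gsdma3 was not tested. KO minus WT was 0.48 ± 0.25 for Gsdma2 and 0.50 ± 0.21 for Gsdma3. For Gsdma2 it was 0.25 without KO replicate 4 of time point 6 and 0.28 without the 3 extreme animals. RE minus WT was -0.50 ± 0.28 (0.339) and -0.01 ± 0.21 (0.981) for Gsdma2 and Gsdma3.

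Those 3 animals held the highest level of both abundant genes of the cluster in their genotype. Gsdma reached 51.4 CPM in RE replicate 1, 158 CPM in KO replicate 4 and 61.7 CPM in WT replicate 4 of time point 6, and Gsdma3 reached 24.6, 24.3 and 17.0 CPM in the same RE, KO and WT animals. The basal marker sum was lowest in the same KO library, at 5403 CPM.

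Gsdmd was called in no comparison. It ran from 0.384 to 2.05 CPM with a median of 0.936 in RE, from 0.584 to 1.72 with a median of 0.811 in KO and from 0.530 to 1.74 with a median of 0.948 in WT. RE minus KO was 0.22 ± 0.14 (95% interval -0.05 to 0.49, adjusted p = 0.249), RE minus WT was -0.01 ± 0.13 (-0.28 to 0.26, 0.974), both by edgeR's quasi-likelihood test, and KO minus WT was -0.23 ± 0.14. At this precision a change of Gsdmd by more than 0.49 log2 units lies outside both intervals.

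Counted over the family, 0 of 7 tested members were called for RE minus WT, against 4.03% of all genes (2.07% higher and 1.96% lower). For RE minus KO, Gsdma alone was called among the members other than Gsdmc and Gsdma2, and was lower. Of all genes 22.5% were called there (11.5% higher and 11% lower). Gsdmc was left out for RE minus WT and RE minus KO, because its differences belong to the choice of the genes. Gsdma2 was left out for RE minus KO, because it was tested through the animals where it was higher. For KO minus WT, the comparison behind the choice, no member is counted as called. Of all genes 28.2% were called there, 13.6% lower and 14.6% higher. Among the members other than Gsdmc, the unadjusted p of edgeR for RE minus WT was under 0.05 for Gsdmc2 alone. DESeq2 and limma voom called 0 of these members.

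**Figure D3:**
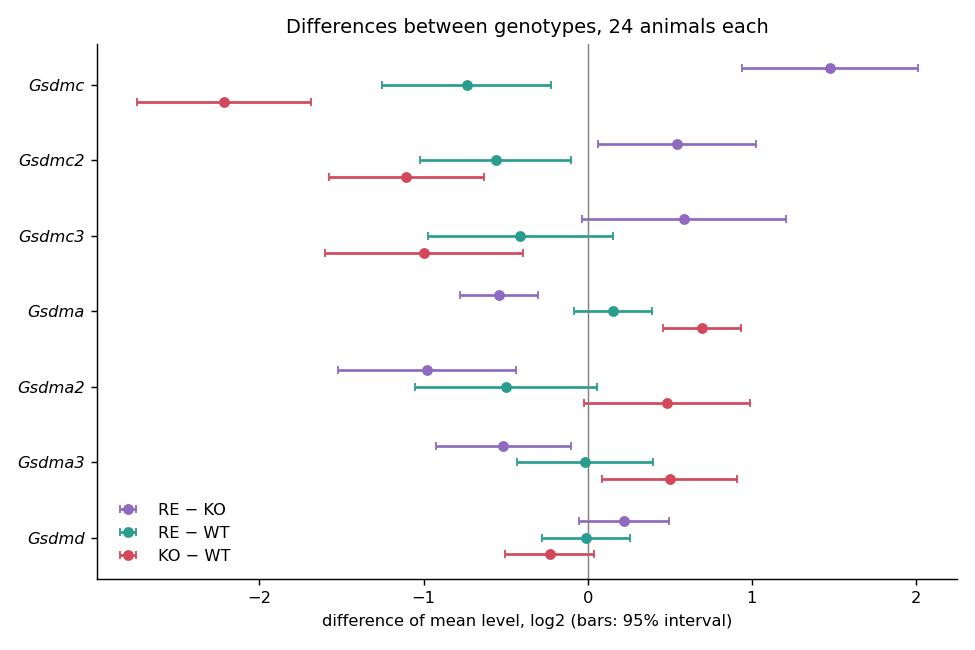
Differences of mean level between genotypes on the log2 scale with their 95% intervals, for the 7 tested gasdermins, 24 animals per genotype. The 3 Gsdmc genes lie below 0 for KO minus WT and Gsdma, Gsdma2 and Gsdma3 above 0, while all RE minus WT intervals but those of Gsdmc and Gsdmc2 include 0.

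A 24 h rhythm in WT was called for 2 of 7 members, against 11% of all genes. With single animals left out in turn, the call of Gsdmc2 was lost for 1 animal. The call of Gsdmc3, close to the threshold, was lost for 52 of the 72. Gsdmc2 had a swing of 1.92 ± 0.45 log2 units with a peak 12.7 h after time point 1 (adjusted p = 0.00321, edgeR's quasi-likelihood test), and Gsdmc3 had 1.69 ± 0.54 with a peak at 11.9 h (0.0493). WT replicate 4 of time point 4 had 15.6 CPM of Gsdmc2, against 0.999 to 2.97 CPM in the other 3 animals of that group, and 2.40 CPM of Gsdmc3, against 0.139 to 0.263. Without this library the swing of Gsdmc2 was 0.97 (adjusted p = 0.211) and that of Gsdmc3 was 0.43 (0.828). The same animal had 49.9 CPM of Gsdmc, the highest of all 72, and the highest sum of the 7 sebaceous gland markers, 212 CPM, against a WT median of 58.0, and the part of this in the result was not tested. No member was called rhythmic in RE, where 2.7% of all genes were called, or in KO, where 5.87% were, by edgeR, DESeq2 or limma voom, and none had an unadjusted p under 0.05 there by edgeR, and 0 of 7 had a rhythm that differed between genotypes, against 2.17% of all genes for RE minus WT, 6.2% for KO minus WT and 0 for RE minus KO (edgeR). The unadjusted p was under 0.05 for 1 such difference, that of Gsdmc2 between KO and WT (0.0272, adjusted p = 0.163), and for none of the others.

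Gsdmc also varied more between animals of 1 group than most genes did. Within genotype and time point its log2 CPM had an SD of 1.04, in the 99.1 percentile of all genes tested, against a median of 0.256. The biological coefficient of variation was 63.6% for Gsdmc, 28.2% for Gsdma and 27.95% for Gsdmd, against a median of 16.5% over all genes. Gsdmc2, Gsdmc3, Gsdma2 and Gsdma3 lay between 47.9% and 59.6%.

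The genes whose log2 CPM ran most like that of Gsdmc over the 72 libraries were Rgs4, a regulator of G protein signalling (Pearson r = 0.816), Galnt1, an enzyme that starts O-glycosylation (0.781), the fatty acid elongase Elovl5 (0.763), Socs2, a suppressor of cytokine signalling (0.759), and Igfbp5, which binds insulin-like growth factors (0.753). These values include the difference between KO and WT for which Gsdmc was chosen. Within WT animals alone (n = 24) the r was 0.393 for Rgs4, 0.382 for Galnt1, 0.307 for Elovl5, 0.197 for Socs2 and 0.033 for Igfbp5. That of Rgs4 was 0.613 within RE and 0.742 within KO. By Spearman's rho 3 of the 5 genes were again among the closest 5. After the mean of each of the 18 groups was subtracted the closest were the stefins Stfa3 and Stfa1, inhibitors of cysteine proteases (both 0.831), their relative BC100530 (0.786), Rgs4 (0.767) and Galnt1 (0.736). Stfa3, Stfa1 and BC100530 are near-identical copies of each other and their counts are uncertain. Within the family Gsdmc followed Gsdmc2 weakly (r = 0.378 over 72 libraries, 0.144 after the group means were subtracted), and Gsdmc2 followed Gsdmc3 more closely (0.671 and 0.597), a pair that shares reads.

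Gsdma ran with the genes of the differentiating layers. The closest were the suprabasal secreted proteins dermokine (Dmkn, r = 0.943) and suprabasin (Sbsn, 0.939, which is also in the spinous list), the saposin-like gene Psapl1 (0.936), Dgat2, an enzyme of triglyceride synthesis (0.932), and Gdpd3, a phosphodiesterase (0.932). Within single genotypes the r of Dmkn was 0.879 in RE, 0.945 in KO and 0.889 in WT, and after the group means were subtracted Psapl1 (0.952) and the epoxide hydrolase Ephx3 (0.926) led. By Spearman's rho 3 of the 5 genes were again among the closest 5. The markers of these layers moved between genotypes as well. Over all genes, 14.6% were called higher in KO against WT, 11% lower and 11.5% higher in RE against KO, and 4.03% for RE minus WT. Of the 6 spinous layer markers 6 rose in KO against WT and 5 of 6 fell in RE against KO, with 0 of 6 called for RE minus WT, and Krt10, the keratin of the suprabasal layers, differed by 0.43 ± 0.09 in KO against WT (adjusted p = 0.000149, edgeR). Of the 9 tested granular and cornified layer markers of 10 listed 6 rose in KO against WT, 5 fell and 1 rose in RE against KO, and 0 were called for RE minus WT. Hornerin (Hrnr) changed most, by 1.20 ± 0.21 in KO against WT (adjusted p = 6.5e-06), and Flg had a median of 0 CPM in all 3 genotypes. The spinous sum ran from 17636 to 27031 CPM in RE (median 22646), from 15766 to 61698 in KO (27340) and from 13654 to 41140 in WT (20354). Gsdma had an r of 0.888 with the spinous sum and 0.869 with the granular sum over 72 libraries, and 0.794 and 0.848 after the group means were subtracted and the 3 extreme animals left out (n = 69). Their part in the difference of Gsdma was not tested.

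**Figure D4:**
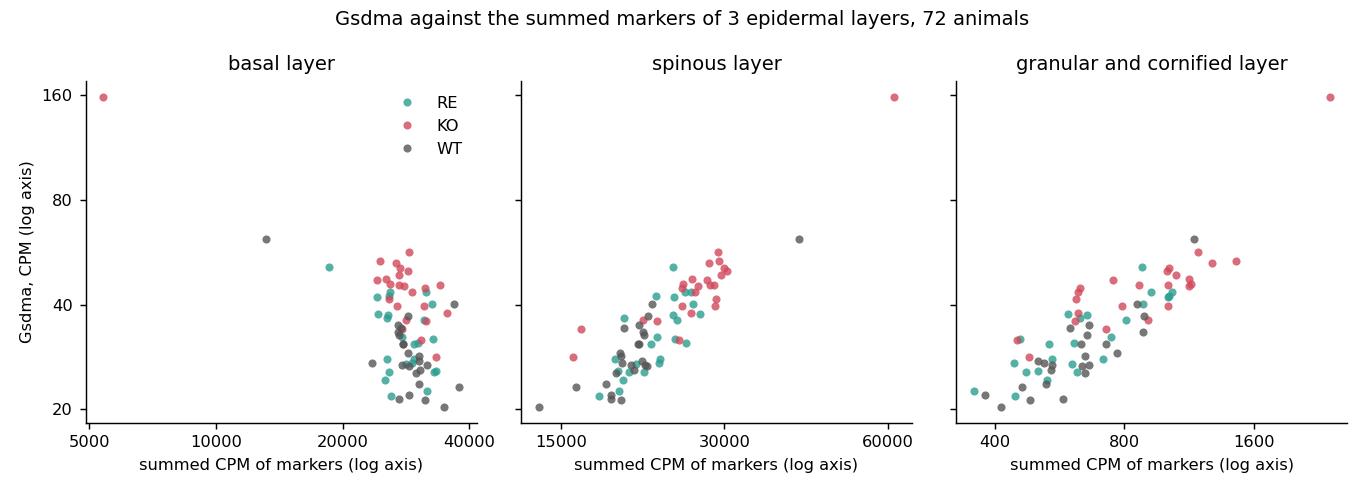
Gsdma level against the summed level of the markers of 3 epidermal layers (CPM, log axes), 1 point per animal coloured by genotype. Points rise together for the spinous (r = 0.888) and granular layers (r = 0.869), and the KO animal at 158 CPM has the lowest basal sum, 5403 CPM.

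For Gsdmc the r with the layer sums depended on the differences between groups. It was -0.147 for the spinous, -0.149 for the granular and -0.088 for the basal sum over 72 libraries, against 0.428, 0.312 and -0.359 after the group means were subtracted. With the 3 extreme animals also left out, these last values were 0.297, 0.160 and -0.136 (n = 69). Several marker lists had members that lay lower in KO than in WT. The counts below stand beside 13.6% of all genes called lower in KO against WT. The shares were 11.5% for higher in RE against KO and 1.96% for lower in RE against WT. Of the markers of the inner root sheath, the channel around the growing hair, 6 of 6 fell in KO against WT, 1 of 6 (Krt73) rose in RE against KO and 1 of 6 (Tchh) fell in RE against WT. Their sum ran from 9.98 to 62.8 CPM in RE (median 12.9), from 8.31 to 16.3 in KO (12.9) and from 11.8 to 48.8 in WT (17.9), nearly all of it Tchh, while the 5 keratins of the list each had medians of at most 0.463 CPM. The r of Gsdmc with this sum was 0.461 over 72 libraries and 0.250 after the group means were subtracted. Of the 7 sebaceous gland markers 3 fell in KO against WT and 0 were called for RE minus WT, and the r of Gsdmc with their sum was 0.424, or 0.302 after the group means were subtracted. In KO against WT 2 of 4 hair shaft, 3 of 5 melanocyte and 1 of 3 macrophage markers fell as well, with an r of 0.319, 0.320 and 0.419 between Gsdmc and their sums, or 0.116, 0.183 and 0.394 after the group means were subtracted. Of the 5 markers of the lower follicle and bulge 0 were called for KO minus WT and 1 rose in RE against KO, and the r of Gsdmc with their sum was 0.379, or 0.567 after the group means were subtracted. The part of these markers in the difference of Gsdmc was not tested. KO replicate 2 of time point 5, the KO animal with the most Gsdmc, also had the highest sum of 4 neutrophil markers in KO, 5.38 CPM against a KO median of 1.13, and the part of this was not tested.

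The genes most like Gsdmd were the ubiquitin-conjugating enzyme Ube2l6 (r = 0.632), Lgals3bp (0.607), the immunoproteasome subunit Psmb8 (0.593), the membrane protein Bst2 (0.552) and Uba7, which activates the ubiquitin-like ISG15 (0.548). These 5 values were lower than those of Gsdma. By Spearman's rho 3 of the 5 were again among the closest 5, beside Ctsz and Arhgdib, and 1 of 5 after the group means were subtracted, so the order depends on the measure. Within genotypes the r of Ube2l6 was 0.631 in RE, 0.659 in KO and 0.610 in WT. Gsdmd ran against Gsdma, with an r of -0.416, and -0.367 without the 3 extreme animals.

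Genes that act before and after the gasdermins were counted from a list of sensors, proteases, cargo, repair genes and regulators. Of 44 listed genes of the pathway 34 had enough reads. In KO against WT 8 rose and 5 fell, 13 of 34 beside 28.2% of all genes, with a median difference of 0.01 against -0.00 over all genes. In RE against KO 2 rose and 5 fell, 7 of 34 beside 22.5% of all genes. In RE against WT only Irf2, a transcription factor that drives Gsdmd in mice and humans, was called (-0.13 ± 0.03, adjusted p = 0.00308, edgeR), 1 of 34 beside 4.03% of all genes. The median difference was -0.04 for RE minus KO, against 0.01 over all genes, and -0.02 for RE minus WT, against 0.01.

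Among the sensors and their adaptor 4 of 9 tested genes differed between KO and WT, beside 28.2% of all genes. Nlrp10, a sensor made by differentiating keratinocytes, rose by 0.45 ± 0.07 in KO (adjusted p = 8.06e-07, edgeR) and fell by 0.42 ± 0.07 in RE against KO (7.83e-06), with medians of 59.1 CPM in RE, 76.0 in KO and 56.2 in WT. Nek7, which NLRP3 needs for its assembly, rose by 0.42 ± 0.04 in KO (9.10e-16) and fell by 0.42 ± 0.04 in RE against KO (2.85e-15). The adaptor Pycard rose by 0.22 ± 0.07 in KO (0.0184), and the DNA sensor Aim2 fell by 0.38 ± 0.13 (0.0208). Nlrp3 itself stood near 0.8 CPM in each genotype, at 0.8291 in RE, 0.817 in KO and 0.824 in WT. Of these genes Aim2 and Nek7 had a rhythm in WT, with swings of 1.14 (adjusted p = 0.00419) and 0.28 (0.0135) log2 units, and that of Aim2 differed between KO and WT (0.0260), while Nlrp10 was called rhythmic in KO (0.54, adjusted p = 0.0362).

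Of the proteases that cut gasdermins, 3 that were not called are described. Casp1 differed by 0.18 ± 0.08 for KO minus WT (adjusted p = 0.0956, edgeR) and by -0.20 ± 0.08 for RE minus KO (0.0725). Casp8, the caspase reported to cut GSDMC in human cells, differed by 0.05 ± 0.04 for KO minus WT (0.362), and Casp4, the mouse caspase-11 that cuts GSDMD, by -0.10 ± 0.10 (0.520). Of the cargo that leaves through the pores, Il18 fell by 0.22 ± 0.08 (0.0272) and Hmgb1 by 0.31 ± 0.05 (4.18e-07) in KO against WT, while Il1b differed by 0.27 ± 0.14 (0.155). Hmgb1 rose by 0.16 ± 0.05 in RE against KO (0.0105).

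Downstream of the pore, 3 of 5 genes of membrane rupture and repair rose in KO against WT, beside 14.6% of all genes. All of them are parts of the ESCRT machinery that removes damaged membrane: Chmp3 by 0.14 ± 0.04 (adjusted p = 0.0112, edgeR), Chmp4b by 0.21 ± 0.05 (0.00243) and Vps4a by 0.10 ± 0.03 (0.00652). Ninj1, which ruptures the membrane of dying cells, differed by 0.04 ± 0.05 (0.659). Of the regulators, the palmitoyltransferases Zdhhc5 and Zdhhc9 rose by 0.11 ± 0.04 (0.0116) and 0.18 ± 0.04 (0.000226), and Irf2 fell by 0.07 ± 0.03 (0.0436). In RE against KO, Chmp4b fell by 0.23 ± 0.05 (0.00127), Zdhhc5 by 0.15 ± 0.04 (0.00155) and Zdhhc9 by 0.20 ± 0.04 (9.39e-05). Zdhhc5 was also called rhythmic in RE (swing 0.28, adjusted p = 0.0381) and in KO (0.26, 0.0439), and its rhythm differed between KO and WT (0.0469). Txnip, a clock-responsive inhibitor of thioredoxin, was rhythmic in WT with a swing of 2.03 log2 units (adjusted p = 0.00290) and differed in its rhythm between KO and WT (0.0124). The remaining gasdermin with enough reads, Gsdme, had medians of 2.53 CPM in RE, 2.40 in KO and 2.49 in WT, and its differences were -0.10 ± 0.08 for KO minus WT (0.373) and -0.03 ± 0.08 for RE minus WT (0.900).

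The cluster of Gsdma lies beside a clock gene. Within 250 kb of its genes the annotation holds 29 others, of which 20 were tested. Of these 5 rose and 2 fell in KO against WT (7 of 20, beside 28.2% of all genes), 2 rose and 3 fell in RE against KO (5 of 20, beside 22.5%) and 1 was called for RE minus WT (beside 4.03%). Nr1d1, which encodes the clock repressor REV-ERBα, has its midpoint 100.6 kb from that of Gsdma and fell by 4.46 ± 0.20 log2 units in KO against WT (adjusted p = 4.54e-28, edgeR), rose by 4.30 ± 0.20 in RE against KO (2.73e-27), and differed by -0.17 ± 0.17 for RE minus WT (0.678). It swung by 3.45 log2 units over 24 h in WT (2.12e-09), and Thra, the thyroid hormone receptor gene whose end overlaps it on the other strand, by 0.61 (3.25e-05); reads of the overlap cannot be told apart without strand, which was not stated. Psmd3, a proteasome subunit 18.2 kb from Gsdma, rose by 0.13 ± 0.03 in KO (0.00184), and Med24, a subunit of the Mediator complex, by 0.18 ± 0.03 (2.15e-07). Gsdma itself had no rhythm in WT by this test (0.34 ± 0.24 log2, adjusted p = 0.609). Cdc6, which licenses DNA replication, fell by 0.40 ± 0.11 in KO (0.00556) and swung by 1.28 in WT (0.000207). The other called neighbours were Erbb2 (0.17 ± 0.04), Gm12352 (0.45 ± 0.09) and Rapgefl1 (0.10 ± 0.04), all higher in KO. In RE against KO, Cdc6 rose by 0.36 ± 0.11 (0.0176), and Erbb2, Gm12352 and Med24 fell by 0.14, 0.35 and 0.07. Med24 was the neighbour called for RE minus WT (0.11 ± 0.03, adjusted p = 0.00806). Med24 was also rhythmic in WT (0.25) and Stard3 in KO (0.33), and the rhythms of Med24, Thra, Nr1d1, Msl1 and Cdc6 differed between KO and WT, those of Thra and Nr1d1 also between RE and WT.

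Around Gsdmd 23 of 26 genes were tested, of which 3 rose and 1 fell in KO against WT (4 of 23, beside 28.2% of all genes), 3 rose and 3 fell in RE against KO (6 of 23, beside 22.5%), and 1 rose in RE against WT (beside 4.03%). Mroh6, 21.6 kb from Gsdmd, was called in all of these: it rose by 0.76 ± 0.12 in KO against WT (adjusted p = 9.10e-07, edgeR), fell by 0.34 ± 0.12 in RE against KO (0.0285), and rose by 0.41 ± 0.12 in RE against WT (0.0319). Mapk15 (0.28 ± 0.10) and Scrib, a cell polarity gene (0.18 ± 0.04), rose in KO against WT, and Tigd5 fell by 0.36 ± 0.11. In RE against KO, Zfp41 (0.28 ± 0.07), Tigd5 (0.42 ± 0.11) and Pycrl (0.18 ± 0.06) rose, and Mapk15 and Scrib fell by 0.28 and 0.15. Zfp41 and Mroh6 were rhythmic in WT (0.45 and 0.90 log2 units) and Nrbp2 in RE and KO (0.37 and 0.45). The rhythm of Nrbp2 differed between KO and WT, and that of K230010J24Rik between KO and WT and between RE and WT.

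**Figure D5:**
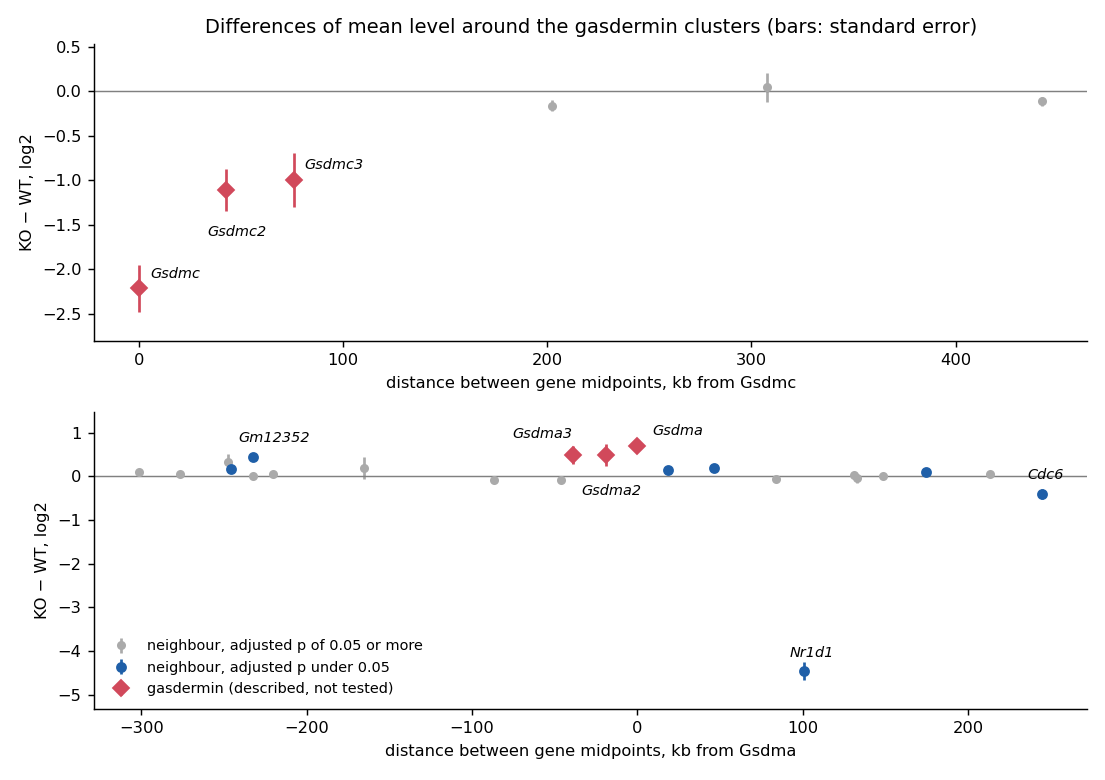
KO minus WT difference of mean level (log2, with standard error) of the genes around the Gsdmc cluster (upper panel) and the Gsdma cluster (lower panel), by distance between gene midpoints in kb. The Gsdmc genes at -2.22, -1.10 and -0.996 stand below their 3 tested neighbours, and Nr1d1 at -4.46 lies lowest near Gsdma, whose own difference is 0.70.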

How the data were processed

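RNA from 72 epidermal samples (4 animals in each of 18 groups of genotype and time point) was sequenced. The deposited values are raw read counts per gene, made by the authors with Trimmomatic, TopHat2 2.1.1 and featureCounts on GRCm38 (mm10), per the submitters' processing notes. Neither strand, read length nor the handling of multiply mapped reads was stated. GENCODE M21 gave positions for 45229 of 46078 gene IDs.

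Counts were filtered (edgeR's filterByExpr over the 18 groups, minimum count 10, leaving 18538 genes), TMM-scaled and fitted over all 72 libraries with edgeR 4.0.16 (quasi-likelihood F-test, 63 residual degrees of freedom, R 4.3.3). The model held a mean and a 24 h cosine and sine for each genotype, with time points taken as 4 h apart, a step that is assumed. A level difference is that of the means, a rhythm is the peak-to-trough swing, and a call is a Benjamini-Hochberg adjusted p under 0.05 over all genes tested. The time points span a single assumed cycle, so a called rhythm was not shown to repeat. CPM for correlations was logged with a prior count of 2. In data simulated from these libraries over 18538 genes, 80.6%, 97.0% and 100% of KO minus WT changes of 1.5-, 2- and 4-fold were recovered, and 34.3%, 76.1% and 93.9% of WT rhythms of the same folds. The genes changed there were drawn at random from all tested genes, whose median biological coefficient of variation was 16.5%. The tested members vary more, from 27.95% for Gsdmd to 63.6% for Gsdmc, so these shares do not apply to them. Coding sequences were aligned with MAFFT 7.526. Alternatives were limma 3.58.1 voom, DESeq2 1.42.0, RLE scaling, no filter, time as a factor, a replicate block, summed paralogs, Spearman's rho for likeness, and leaving out libraries or time points.

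The members and all gene lists were chosen with earlier results of these data known. Named genes are the members, called genes of the pathway lists and of the 250 kb around a member, and the 5 genes most like Gsdmc, Gsdma and Gsdmd by Pearson r among genes whose mean log2 CPM was 1 or more. The result of 1 called pathway gene is not reported here. Other genes, including uncalled pathway genes and layer markers, were named after their values were seen. Each library is 1 animal. Intervals for levels give the uncertainty of a difference of means, estimated from the spread between animals, and not the range of single animals.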

Additional observations from a re-analysis of the deposited data

Results flagged for a closer look

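In 12 of 126 groups of 4 animals 1 animal stood apart from the other 3, and chance alone flags about 1 in 20 groups. At time point 6, KO replicate 4 had 158 CPM of Gsdma, against 35.8 to 47.2 CPM in the other KO animals, and WT replicate 4 had 61.7 CPM, against 21.3 to 27.1 CPM in the other WT animals. Gsdma3 reached 24.6 CPM in RE replicate 1 of time point 6, against 2.39 to 4.68 CPM in the other RE animals, and 17.0 CPM in WT replicate 4, against 2.13 to 4.04 CPM. In WT Gsdma3 was low in replicate 4 of time point 2, at 4.27 CPM against 7.17 to 7.77, and in replicate 4 of time point 3, at 2.90 CPM against 4.37 to 4.48. Gsdma2 had 0.326 CPM in KO replicate 1 of time point 4, against 0.138 to 0.156.

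Gsdmc had 16.6 CPM in KO replicate 2 of time point 5, against 1.81 to 3.47 CPM in the other KO animals. WT replicate 4 of time point 4 had 15.6 CPM of Gsdmc2, against 0.999 to 2.97, and 2.40 CPM of Gsdmc3, against 0.139 to 0.263. Gsdmd was low in RE replicate 2 of time point 2, at 0.447 CPM against 1.00 to 1.07, and high in WT replicate 2 of time point 5, at 1.74 CPM against 0.867 to 0.923.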

How the results depend on the processing

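Replicate numbers were not treated as pairs: the median correlation of same-numbered deviations was 0.0278 for RE and KO, 0.0829 for RE and WT and 0.0446 for KO and WT, with 9, 10 and 9 of 24 pairs over 0.1. Single pairs ran from -0.423 to 0.428 for RE and KO, from -0.490 to 0.336 for RE and WT and from -0.276 to 0.678 for KO and WT. Shared handling of some same-numbered animals cannot be told from these values. With the replicate block 5132 genes differed between KO and WT and 681 between RE and WT, and of the members 1 in place of 2 was called rhythmic in WT, as Gsdmc3 had a swing of 1.52 (adjusted p = 0.117, edgeR). The members called rhythmic in WT were also 1 with no filter, with DESeq2, without the 3 extreme animals and without time point 1, 2, 5 or 6, and 0 with limma voom or without time point 4, and the range over single animals left out was 0 to 2. Members other than Gsdmc called for RE minus WT were 0 with limma voom as well. Genes called for RE minus WT, 748, were 486 with no filter, 1190 without the 3 extreme animals, and 139, 358, 351 and 337 without time points 1, 3, 4 and 5. Those for RE minus KO, 4174, were 2292 without time point 2. Rhythmic genes in WT, 2031, were 1019, 1246, 1330, 1224 and 3261 without time points 1, 2, 3, 5 and 6. In KO, 1088 became 202, 1924, 554 and 681 without time points 2, 3, 5 and 6. In RE, 501 became 1112 with time as a factor, and 179 and 246 without time points 2 and 5. Rhythm differences for KO minus WT, 1150, were 574 with time as a factor and 606, 312, 592 and 523 without time points 1, 2, 3 and 5. Those for RE minus WT, 402, were 696 with DESeq2, 192 with time as a factor, and 240, 84, 201, 113 and 765 without time points 1, 2, 3, 5 and 6. Leaving out single animals gave 5001 to 5642 calls for KO minus WT, 558 to 1021 for RE minus WT and 3801 to 4549 for RE minus KO. Rhythmic genes then numbered 302 to 880 in RE, between 645 and 1527 in KO (645 without replicate 2 of time point 5) and 1640 to 2460 in WT, and rhythm differences 808 to 1622 for KO minus WT and 303 to 573 for RE minus WT. Members called for RE minus KO, counted here with Gsdmc and Gsdma2, ran from 3 to 4. The sign of RE minus WT turned for Gsdma3 (0.00454 with time as a factor, 0.000412 without time point 6, 0.0497 and 0.0482 without time points 2 and 4, and -0.20 to 0.15 over single animals) and for Gsdmd (0.0108 without the 3 extreme animals, 0.0238 and 0.103 without time points 2 and 5, and -0.0840 to 0.0442 over single animals). The causes were not tested. Gsdma2, Gsdmc3 and Gsdmc4 rest on few reads (436, 650 and 196 over 72 libraries), which limits them.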
